A study of Mus musculus with 16 samples.

Results

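The genes described here are 7 Krüppel-like factors (Klf2, Klf3, Klf4, Klf6, Klf7, Klf10 and Klf13) and 2 forkhead box O factors (Foxo1 and Foxo3), measured in mouse CD4+ T cells with and without STAT3. They were taken by name: every probe set whose platform annotation gave exactly 1 gene symbol, that of 1 of these 9 genes, was kept. This gave 30 probe sets out of 45037 on the array, for 9 of the 18193 genes named there. Of these, 26 reached a log2 intensity of 6 on at least 2 arrays and were tested, together with 27220 probe sets in all. The study held 16 Affymetrix arrays in 8 groups of 2, from 2 genotypes and 4 conditions. In the STAT3-deficient cells the floxed Stat3 gene was cut by a recombinase that the labels name CD4 Cre, and the cells labelled WT had the floxed gene alone. A Cre under CD4 control is active from thymic development on, in CD4 and CD8 lineages alike. All cells were sorted as naive CD4+ T cells and then activated through CD3 and CD28 with antibodies over 3 days, so every group, the medium controls included, held activated cells and no resting sample was analysed here. They were kept in medium alone, in TGFb (2.5 ug/ml), in IL-6 (10 ug/ml) or in IL-6 with TGFb, the Th17-polarizing mixture, in the dose units of the labels. The sources used here give neither the age and strain of the mice nor which animals the replicates came from. Sex-linked genes, given below, part the 2 arrays of every group into female and male material, so these were not from the same animal. The p-values therefore cover the spread between the arrays at hand alone, in which sex, animal and technical spread cannot be told apart.

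Krüppel-like factors are zinc finger proteins that bind GC-rich boxes and CACCC boxes in promoters. Klf2 holds naive T cells in a resting, recirculating state and is switched off when the antigen receptor is engaged. Foxo1 and Foxo3 are kept in the nucleus of resting cells, where they drive genes of cell cycle arrest, survival and homing, and are phosphorylated by the kinases Akt and Sgk and exported when the cell is activated. Foxo1 is itself an activator of Klf2, and Klf10 was first described as an early target of TGFb. The comparisons below ask how the transcripts of these factors followed TGFb, IL-6 and the loss of STAT3, the factor activated by the IL-6 receptor.

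The promoters of Klf2, Foxo1 and Klf7 are shown because the transcripts of these genes moved with TGFb or with STAT3 in the results below. Each is the 250 bases before the RefSeq start of the gene (mouse build GRCm38.p6), 5′ to 3′ on the gene's own strand, with the GC box letters GGGCGG, or their reverse complement CCGCCC, in capitals. The Klf2 stretch is chr8:72318812-72319061 on the plus strand, the Foxo1 stretch is chr3:52268087-52268336 on the plus strand, and the Klf7 stretch is chr1:64121390-64121639 on the minus strand.
Klf2 promoter: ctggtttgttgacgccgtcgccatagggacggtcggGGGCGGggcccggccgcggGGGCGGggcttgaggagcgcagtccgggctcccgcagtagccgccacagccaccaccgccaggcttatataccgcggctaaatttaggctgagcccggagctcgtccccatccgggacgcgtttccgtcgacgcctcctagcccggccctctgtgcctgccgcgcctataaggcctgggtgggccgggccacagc
Foxo1 promoter: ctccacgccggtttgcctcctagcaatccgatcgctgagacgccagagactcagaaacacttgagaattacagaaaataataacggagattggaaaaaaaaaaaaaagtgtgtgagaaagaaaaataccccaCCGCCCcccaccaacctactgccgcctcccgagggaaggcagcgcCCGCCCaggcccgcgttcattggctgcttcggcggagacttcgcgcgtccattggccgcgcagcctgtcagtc
Klf7 promoter: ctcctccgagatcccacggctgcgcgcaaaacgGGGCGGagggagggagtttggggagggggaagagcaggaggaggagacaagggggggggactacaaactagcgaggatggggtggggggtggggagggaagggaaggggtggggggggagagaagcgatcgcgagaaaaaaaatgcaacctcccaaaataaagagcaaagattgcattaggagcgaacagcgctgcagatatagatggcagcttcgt
Of the 9 genes, 8 had a RefSeq promoter entry, and Klf10 had none. The GC box occurred in all 8 of these windows, against 32.7% of 32851 mouse promoter windows of the same length. It was found 2 times before Klf2, 2 times before Foxo1 and 1 time before Klf7. The GC content of the 8 windows ranged from 56% for Foxo1 to 78.4% for Klf3, with a median of 52.4% over all windows. The letters TTCNNNGAA (a STAT half-site pair, in 7.02% of all windows) and GTAAACA (a forkhead core, in 3.17%) were in none of the 8. The letters CAGAC (a SMAD element, in 42.2%) were found for Klf3 alone. All letters were searched on both strands. Matches of 1 motif could overlap, as those of the GC box did once before Klf4, and none overlapped a match of another motif. A match or its absence says only which letters lie in these windows.

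T cell markers were high on every array: Cd3d read between 12.10 and 13.55, Cd3g between 11.45 and 12.55 and Cd4 between 9.64 and 10.94. Of 24 markers of other lineages, 11 lay under log2 6 on all 16 arrays, among them Cd79a (B cells), Itgam and Cd14 (myeloid cells), Itgax (dendritic cells), Ncr1 (NK cells), Cdh5 (endothelium), Col1a1 (stroma) and Hba-a1 (erythroid cells). At or above 6 on all arrays were 6, namely Cd8a, Cd8b1 (6.63 to 7.43), Csf1r (7.10 to 7.94), Flt3 (6.55 to 7.25), Kdr (6.41 to 6.99) and Pecam1 (6.25 to 9.16), and the other 7 reached 6 on some arrays, Cd68 on 12 and Col1a2 on 9. The log2 of their summed intensity was 10.59 to 11.10 with and 10.59 to 10.88 without TGFb, and with IL-6 10.59 to 10.88 in deficient and 10.62 to 10.78 in WT cells, so these ranges overlapped. Stat3 (probe set 1460700_at) read 10.22 to 12.18 in WT and 8.40 to 10.46 in STAT3-deficient cells, and was lower in the deficient array of every same-numbered pair. Whether this probe set lies in the deleted part is not known from the files. All replicate 1 arrays read high Xist (11.91 to 13.21) and all replicate 2 arrays read high Eif2s3y (9.84 to 10.98), so the replicate number parts female from male material. It also parts the Actb 5′ minus 3′ difference, a measure of RNA integrity, at -0.50 to -0.11 against -1.71 to -0.88. Some arrays stood apart from their partners. STAT3-deficient TGFb replicate 1 read the Th17 cytokine Il17a at 9.55, as against 6.07 on its partner, and WT TGFb replicate 1 read the regulatory T cell factor Foxp3 at 4.81, as against 9.99. STAT3-deficient IL-6 with TGFb replicate 1 read Il17a at 6.29, so that of these 2 deficient arrays the one labelled TGFb alone was high. Whether arrays were exchanged was not tested, and the labels were kept. Stat3 read 11.79 on WT TGFb replicate 1 and 8.46 on STAT3-deficient TGFb replicate 1, in the ranges of their labelled genotypes. Calls of KLF and FOXO probe sets and of listed genes were also made without these 2 deficient arrays, and calls that changed are given below. The replicate block was not run on that smaller set.

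**Figure D1:**
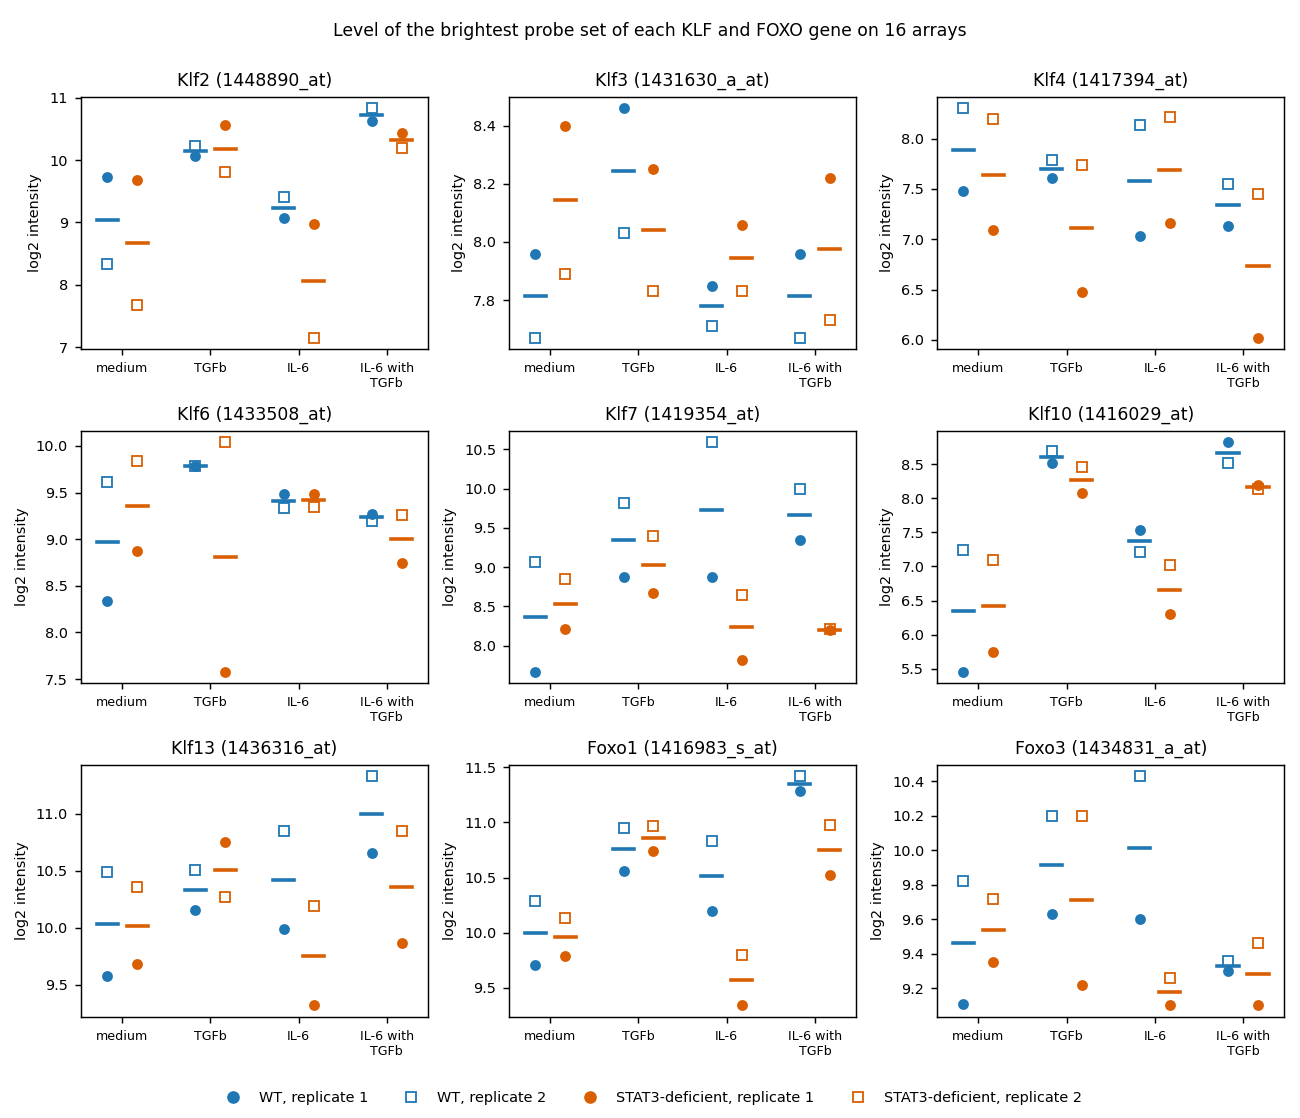
Log2 intensity (vertical axis) of the brightest probe set of each of the 9 genes in the 4 conditions, with each array as a point (filled circles for replicate 1, open squares for replicate 2), WT in blue, STAT3-deficient in orange and bars at the group means of 2 arrays. The 8 arrays with TGFb lie above the 8 arrays without it for Klf2 (lowest 9.81 against highest 9.73) and Klf10 (lowest 8.07 against highest 7.53), and the vertical axes differ between panels and do not start at 0.

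TGFb raised Klf2, Klf10 and Foxo1 in the average over both genotypes, and its effect within either genotype alone was not tested. Klf10 was 3.30-fold higher, Klf2 3.01-fold higher and Foxo1 1.89- to 2.01-fold higher by 3 of its 4 probe sets, averaged over 8 arrays with and 8 arrays without TGFb. In this comparison 5 of the 26 tested KLF and FOXO probe sets rose and 0 fell, where 5.91% of all probe sets tested were called (3.76% higher and 2.15% lower). Called means an adjusted p under 0.05 in limma, after Benjamini-Hochberg adjustment over all probe sets. In bulk RNA such as this, fewer cells of a type and less RNA per cell cannot be told apart.

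Klf2, the factor that keeps naive T cells recirculating through its target S1pr1, was read by 1 probe set (1448890_at). In WT cells it read 9.73 and 8.34 in medium, 10.07 and 10.22 in TGFb, 9.07 and 9.41 in IL-6, and 10.63 and 10.83 in IL-6 with TGFb (replicate 1 first). In STAT3-deficient cells it read 9.68 and 7.67 in medium, 10.56 and 9.81 in TGFb, 8.97 and 7.15 in IL-6, and 10.44 and 10.19 in IL-6 with TGFb. The arrays with TGFb sat above all those without it, and the lowest values were the replicate 2 arrays of deficient cells without TGFb. The mean was log2 10.34 with and 8.75 without TGFb, a difference of 1.59 (SE 0.34, 95% interval 0.83 to 2.35, limma adjusted p = 0.0215). All 8 same-numbered differences were positive, from 0.34 between the WT TGFb and medium arrays of replicate 1 to 3.04 in deficient cells with IL-6. Without the 2 arrays named above, the difference was 1.47 and no longer called (adjusted p = 0.0874), which left 4 of the 26 called, where 4.19% of all were called. Leaving out 1 array at a time gave 1.34 to 1.84, with 11 of 16 fits called; the call was lost without WT IL-6 replicate 1, WT TGFb replicate 2, either WT IL-6 with TGFb array or STAT3-deficient IL-6 with TGFb replicate 1.

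Klf10, also known as TGFb-inducible early gene, was read by 1 probe set (1416029_at). WT cells gave 5.46 and 7.24 in medium, 8.52 and 8.69 in TGFb, 7.53 and 7.21 in IL-6, and 8.82 and 8.51 in IL-6 with TGFb. Deficient cells gave 5.75 and 7.09 in medium, 8.07 and 8.45 in TGFb, 6.30 and 7.02 in IL-6, and 8.20 and 8.13 in IL-6 with TGFb. The TGFb arrays lay in a narrow band between 8.07 and 8.82, whereas those without TGFb spread from 5.46 to 7.53 with the replicate 1 medium arrays lowest. The mean difference was 1.72 (SE 0.27, 95% interval 1.14 to 2.31, limma adjusted p = 0.00400), with 8 of 8 same-numbered differences positive (1.11 to 3.06). It was called in all 16 fits that left out 1 array, at 1.50 to 1.95, and without the 2 arrays named above, at 1.76 (limma adjusted p = 0.0211).

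Foxo1, the forkhead factor that sustains Il7r and Klf2 in naive T cells, was read by 4 probe sets. The brightest, 1416983_s_at, read 9.71 and 10.29 in WT medium, 10.56 and 10.95 in TGFb, 10.20 and 10.83 in IL-6, and 11.28 and 11.42 in IL-6 with TGFb. In deficient cells it read 9.79 and 10.13 in medium, 10.74 and 10.97 in TGFb, 9.34 and 9.80 in IL-6, and 10.52 and 10.98 in IL-6 with TGFb. The highest pair was WT cells in IL-6 with TGFb and the lowest was deficient cells in IL-6. With and without TGFb the arrays overlapped, since WT IL-6 replicate 2 (10.83) lay above the lowest TGFb array (10.52). TGFb nonetheless raised the level within every same-numbered pair: the mean difference was 0.92 (SE 0.15, 95% interval 0.59 to 1.25, limma adjusted p = 0.00543). Probe set 1416981_at rose by 0.96 (SE 0.17, limma adjusted p = 0.00763) and 1416982_at by 1.00 (SE 0.12, limma adjusted p = 0.000894), each in 8 of 8 pairs, and all 3 were called in all 16 fits that left out 1 array and without the 2 arrays named above (1.01, 0.80 and 0.93). The fourth, 1456529_at, passed the level minimum through the replicate 1 arrays of deficient cells in TGFb (6.27) and in IL-6 with TGFb (6.29) alone, lay between 5 and 5.81 elsewhere, and differed by 0.31 (adjusted p = 0.43).

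**Figure D2:**
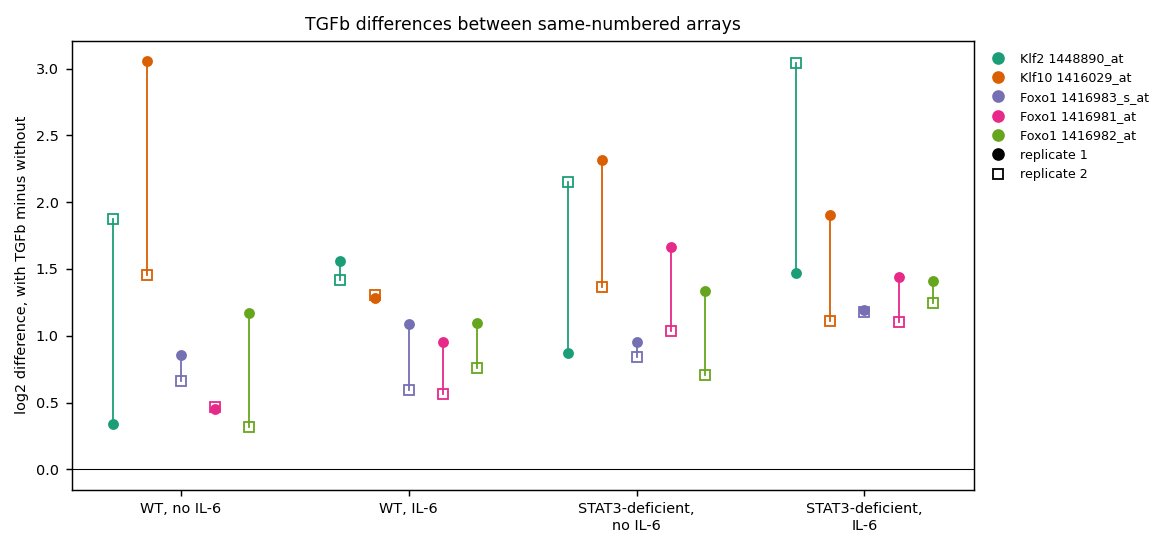
Difference in log2 intensity, with TGFb minus without TGFb (vertical axis), between arrays of the same replicate number for the 5 called probe sets, in the 4 settings of genotype and IL-6 on the horizontal axis. Filled circles are replicate 1, open squares replicate 2, and lines join both. Every difference is above 0, and they range from 0.31 (Foxo1 1416982_at) to 3.06 (Klf10), both in WT cells without IL-6.

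The TGFb differences of the genotypes were compared directly. For Klf2 the TGFb effect was 0.58 larger in deficient cells (95% interval -0.93 to 2.10), for Klf10 -0.10 (-1.27 to 1.07) and for Foxo1 1416983_s_at 0.24 (-0.42 to 0.90), on the log2 scale. No KLF or FOXO probe set was called in this interaction, where 0% of all probe sets were called by limma (582 of them, and 0 of the 26, had an unadjusted p under 0.05). With the block 0 of the 26 and 0.00735% of all were called. The intervals leave room for differences of more than 2-fold for Klf2 and Klf10.

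Klf4, a factor that slows T cell proliferation, pointed the other way. Probe set 1417394_at read 7.48 and 8.30 in WT medium, 7.61 and 7.79 in TGFb, 7.03 and 8.13 in IL-6, and 7.13 and 7.55 in IL-6 with TGFb. In deficient cells it read 7.09 and 8.19, 6.48 and 7.74, 7.16 and 8.21, and 6.02 and 7.45 in the same order. The lowest values were those of the 2 deficient arrays set apart above, and replicate 2 was higher than replicate 1 in all 8 groups. The TGFb difference was -0.48 (adjusted p = 0.439) and that of 1417395_at -0.49 (SE 0.16, adjusted p = 0.0945), positive in 2 and 1 of 8 pairs. These differences were -0.14 and -0.39 without the 2 arrays named above. With the replicate number as a block both passed (limma adjusted p = 0.046 and 0.0231). The block called 5 of the 26 as higher with TGFb and 2 as lower, where 12.9% of all probe sets were called (7.40% higher and 5.47% lower).

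The other members showed no called change with TGFb. The differences were 0.34 for Klf7 1419354_at (adjusted p = 0.593), 0.49 for Klf13 1436316_at (adjusted p = 0.275) and 0.01 for Foxo3 1434831_a_at (adjusted p = 0.984). For the brightest probe sets of Klf3 and Klf6 they were 0.10 and -0.08 (adjusted p = 0.754 and 0.929).

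Where IL-6 was present, probe sets of Foxo1 and Klf7 were called lower in STAT3-deficient than in WT cells, but not in every fit. Both Foxo1 calls were lost under quantile normalization, as given below. The test of the difference between the genotypes' IL-6 effects, also below, called 0 of the 26 without the block. Over the 4 deficient and 4 WT arrays with IL-6, alone or with TGFb, Foxo1 was 2.12-fold lower by 1416981_at and 1.82-fold lower by 1416982_at, and Klf7 3.66-fold lower by 1419356_at. Of the 26 probe sets 0 rose and 3 fell, where 5.86% of all were called (1.07% higher and 4.79% lower). In the fit without the 2 arrays named above, 2 fell, where 2.67% of all were called, and Klf7 1419356_at was no longer called. With the replicate number as a block, 8 of the 26 fell, where 16% of all were called (12.2% lower), and the 8 were all 4 probe sets of Klf7, 3 of Foxo1 and 1 of Klf13. The Actb 5′ minus 3′ difference was also lower in the deficient array of all 4 same-numbered pairs with IL-6, at -0.27 against -0.11 and -1.71 against -0.999 under IL-6, and at -0.25 against -0.21 and -1.22 against -0.88 under IL-6 with TGFb. The Gapdh 5′ minus 3′ difference was higher in the deficient array of replicate 1 under IL-6 (0.080 against 0.031) and lower in that of replicate 2 (-0.61 against -0.23). Under IL-6 with TGFb it was 0.099 against 0.101 and -0.39 against -0.32. The part of these measures in the genotype differences was not tested. STAT3-deficient IL-6 replicate 2 was the lowest of all 16 arrays in both measures. Without it the differences were -0.87 for Foxo1 1416982_at (limma adjusted p = 0.04), -1.11 for 1416981_at (adjusted p = 0.0529) and -2.19 for Klf7 1419356_at (limma adjusted p = 0.0316).

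Foxo1 1416982_at gave the clearest separation. Under IL-6 it read 9.72 and 9.66 in WT and 8.61 and 8.63 in deficient cells. Under IL-6 with TGFb it read 10.81 and 10.42 in WT and 10.02 and 9.88 in deficient cells. Within each condition the genotypes did not overlap, and the deficient IL-6 arrays were the lowest of all 16. The mean over both conditions was 10.15 in WT and 9.29 in deficient cells, a difference of -0.86 (SE 0.17, 95% interval -1.24 to -0.49, limma adjusted p = 0.0163). Under IL-6 alone it was -1.06 (SE 0.24, limma adjusted p = 0.0473), the 1 called of 26 in that condition, where 2.13% of all probe sets were called (1.77% lower). That call was lost without the 2 arrays named above (adjusted p = 0.0571), where 1416981_at passed in its place (-1.34, limma adjusted p = 0.0469) and 1.80% of all were called, and of the 16 fits that left out 1 array it was kept only in the 4 without a WT medium or a deficient TGFb array. Under IL-6 with TGFb it was -0.66 (adjusted p = 0.394), and 0 of 26 were called there against 0.937% of all.

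Probe set 1416981_at of Foxo1 read 10.05 and 9.77 in WT IL-6 and 8.52 and 8.63 in deficient IL-6, then 11.01 and 10.34 in WT and 9.96 and 9.73 in deficient cells with IL-6 and TGFb. The genotypes again did not overlap within a condition, and the difference over both was -1.09 (SE 0.24, 95% interval -1.60 to -0.57, limma adjusted p = 0.0238). For the brightest, 1416983_s_at, it was -0.77 (SE 0.21, adjusted p = 0.0567; with the block 0.00288). All 4 same-numbered pairs were lower in deficient cells for each of these 3 probe sets. With IL-6 present and 1 array left out at a time, 1416981_at was called in 10 of 16 fits and 1416982_at in 13 of 16. The first was lost without replicate 1 of WT IL-6 or of WT IL-6 with TGFb or without any deficient array with IL-6, the second without WT IL-6 with TGFb replicate 1 or either deficient IL-6 with TGFb array (adjusted p up to 0.109). Without both arrays named above, 1416982_at differed by -0.90 (limma adjusted p = 0.0412). Quantile normalization gave -0.94 for 1416981_at (adjusted p = 0.0717), -0.71 for 1416982_at with IL-6 present (adjusted p = 0.0508) and -0.81 for it under IL-6 alone (adjusted p = 0.136), so these calls were lost.

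Klf7, a widely expressed member of the family, had 4 probe sets whose levels followed each other over the 16 arrays (Pearson r of the brightest with the others 0.84 to 0.97, a description over arrays that share their groups). The brightest, 1419354_at, read 7.67 and 9.07 in WT medium, 8.87 and 9.81 in TGFb, 8.87 and 10.59 in IL-6, and 9.34 and 9.99 in IL-6 with TGFb. In deficient cells it read 8.21 and 8.85 in medium, 8.67 and 9.39 in TGFb, 7.82 and 8.65 in IL-6, and 8.20 and 8.21 in IL-6 with TGFb. The 4 deficient arrays with IL-6 lay below the 4 WT arrays with IL-6, while without IL-6 the genotypes overlapped. The difference with IL-6 present was -1.48 (SE 0.43, 95% interval -2.43 to -0.53, adjusted p = 0.0698), and with the replicate number as a block it was called (limma adjusted p = 0.0027). It was -1.47 (adjusted p = 0.164) without the 2 arrays named above.

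Probe set 1419356_at of Klf7 read 6.54 and 8.37 in WT IL-6, 6.73 and 7.22 in WT IL-6 with TGFb, 4.75 and 6.02 in deficient IL-6, and 5.04 and 5.55 in deficient IL-6 with TGFb. Its deficient arrays with IL-6 lay at 6.02 or below, close to or under the level minimum, so the size of the difference depends on the array background. It was -1.87 (SE 0.43, 95% interval -2.82 to -0.92, limma adjusted p = 0.0308), and without the 2 arrays named above -1.74 (adjusted p = 0.111). It was called in 10 of the 16 fits that left out 1 array, and lost without WT IL-6 replicate 2, deficient IL-6 replicate 1 or any array with IL-6 and TGFb. The remaining probe sets, 1449439_at and 1419355_at, differed by -1.82 and -1.89 (adjusted p = 0.139 and 0.0726), and passed with the block (limma adjusted p = 0.00254 and 0.000454). The array WT IL-6 replicate 2 carried the highest Klf7 value by all 4 probe sets. Without it the Klf7 1419354_at difference with IL-6 present was -1.05, against -1.91 without WT IL-6 replicate 1, and under IL-6 alone it was -0.63 against -2.36.

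**Figure D3:**
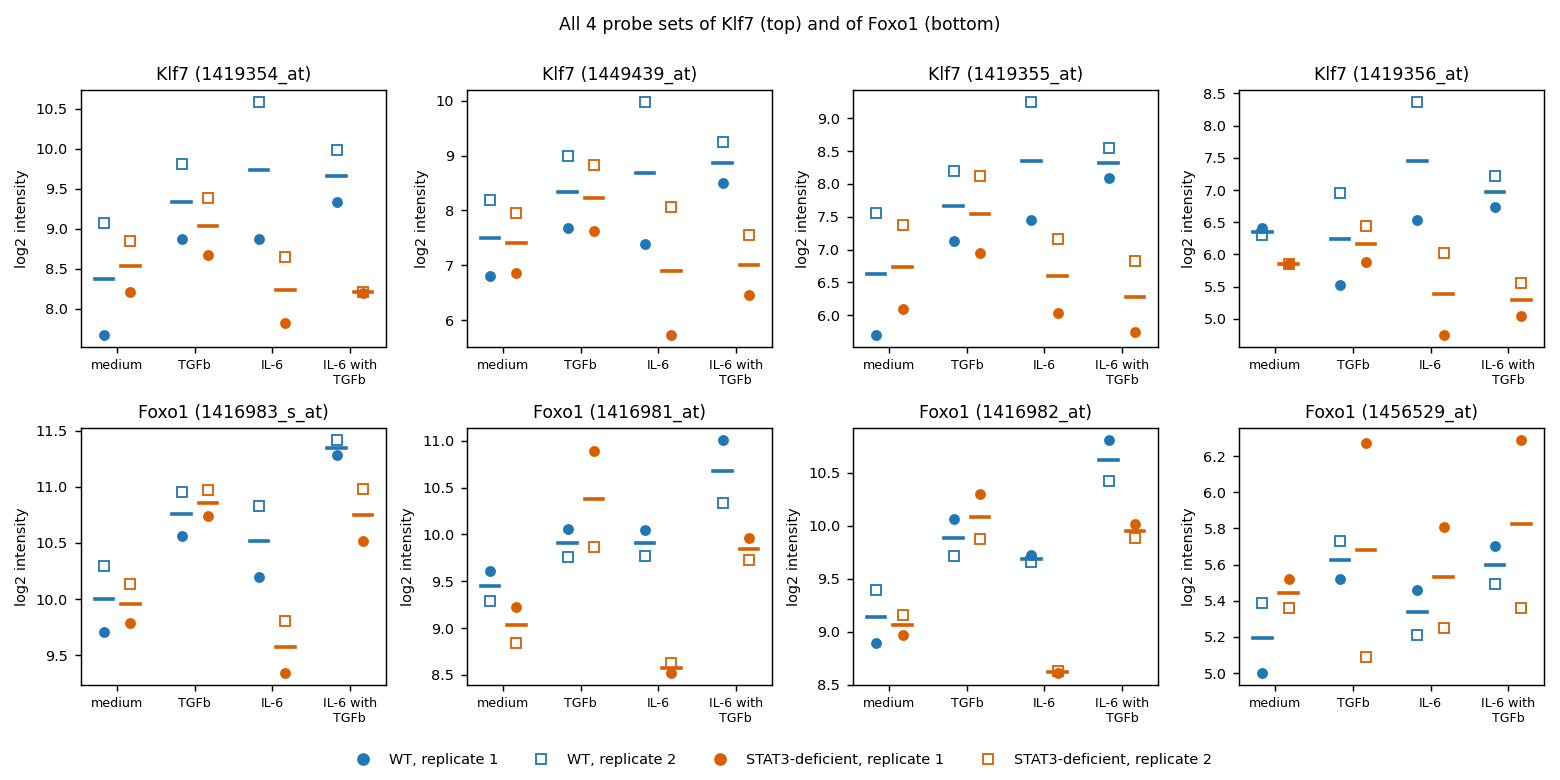
Log2 intensity (vertical axis) of the 4 probe sets of Klf7 (top) and of Foxo1 (bottom) in the 4 conditions, with each array as a point (filled circles for replicate 1, open squares for replicate 2), WT in blue, STAT3-deficient in orange, and bars at the group means of 2 arrays. Orange bars lie below blue bars under IL-6 and under IL-6 with TGFb in every panel but Foxo1 1456529_at, which reached 6 on 2 arrays. Vertical axes differ between panels and do not start at 0.

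The remaining members with IL-6 present gave no call without the block. Klf13, which drives late Ccl5 expression in T cells, differed by -0.81 on 1432543_a_at (SE 0.25, adjusted p = 0.0874; with the block 0.0146) and by -0.65 on 1436316_at (adjusted p = 0.264). Klf2 differed by -0.80 (SE 0.49, 95% interval -1.87 to 0.27, adjusted p = 0.336), lower in deficient cells in 4 of 4 pairs, and its largest gap was 2.26 between the replicate 2 arrays under IL-6. Klf10 differed by -0.60 (adjusted p = 0.349). Foxo3, the paralogue of Foxo1 that restrains T cell survival and proliferation, differed by -0.44 on both probe sets (adjusted p = 0.336 and 0.21).

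Under IL-6 alone the block called 9 of the 26, all lower, where 10.0% of all probe sets were called (7.87% lower). These were the 4 probe sets of Klf7, 3 of Foxo1 and both of Foxo3. Foxo3 1434831_a_at read 9.60 and 10.43 in WT and 9.10 and 9.26 in deficient cells under IL-6, a difference of -0.84 (adjusted p = 0.253; with the block 0.0442). Under IL-6 with TGFb the block called 3 of the 26, all of Klf7 and all lower, where 2.15% of all were called (1.81% lower).

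Without IL-6 no genotype difference was called for these genes. In medium, under TGFb and over both, limma called 0 of the 26 and 0% of all probe sets; at an unadjusted p under 0.05 these comparisons held 63, 167 and 85 probe sets, with 0 of the 26 in each. With the block the counts were also 0. The difference over both conditions was 0.06 for Foxo1 1416982_at (95% interval -0.31 to 0.44), -0.07 for Klf7 1419354_at (-1.02 to 0.87) and -0.16 for Klf2 (-1.23 to 0.91). Whether the genotype difference itself differed with IL-6 is the interaction test given next.

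**Figure D4:**
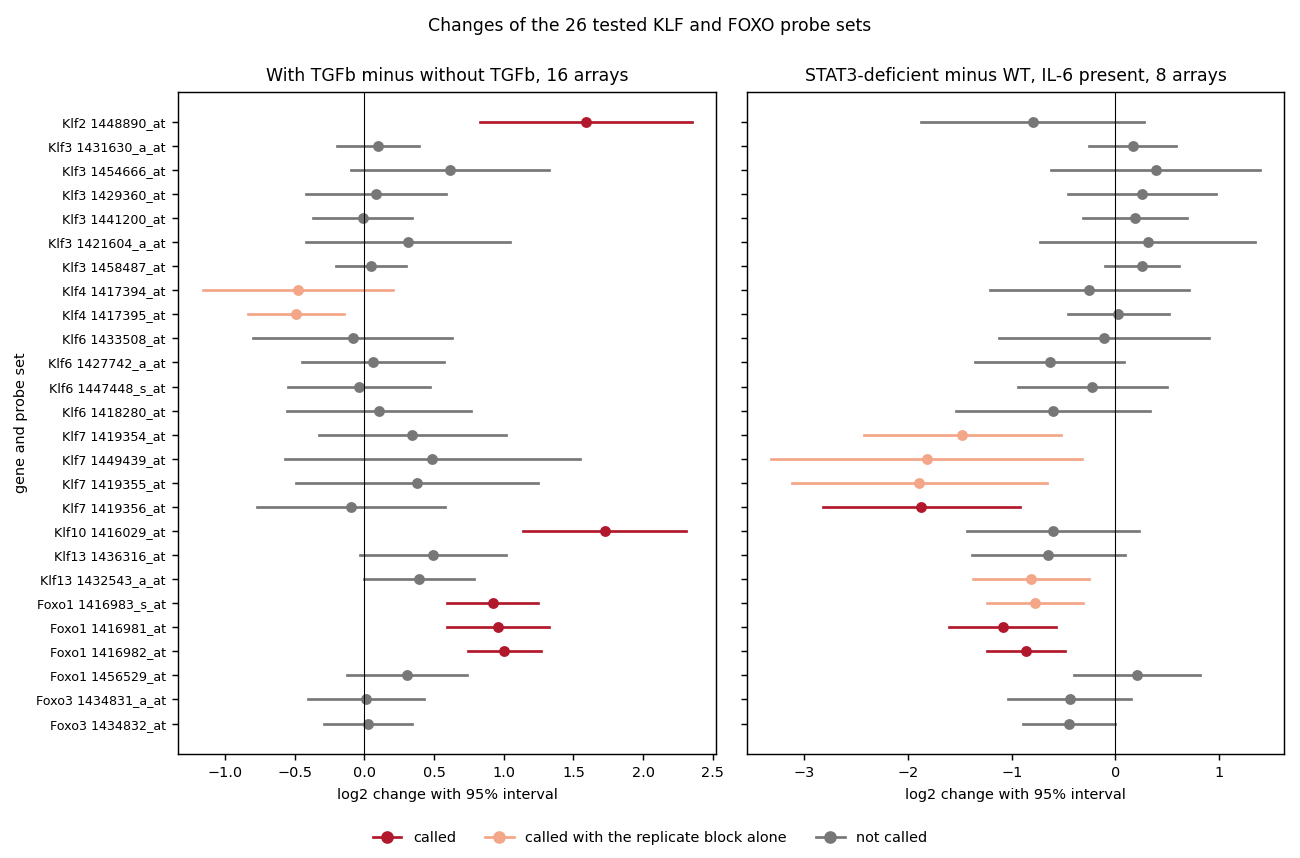
Log2 change (horizontal axis) with its 95% interval, from the fit without the block, for each of the 26 tested probe sets (vertical axis): left, with TGFb minus without TGFb over 16 arrays, and right, STAT3-deficient minus WT over the 8 arrays with IL-6. Red marks the 5 and 3 probe sets called at an adjusted p under 0.05, pale orange the 2 and 5 called with the replicate block alone, and grey the rest.

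The IL-6 effect itself was then compared between the genotypes. In WT cells IL-6 changed 0 of the 26 past the threshold, where 1.17% of all probe sets were called, and with the block 2 rose (Klf7 1419355_at by 1.19, limma adjusted p = 0.0111, and Foxo1 1416983_s_at by 0.55, limma adjusted p = 0.0357), where 2.97% of all were called (2.40% higher). The same-numbered differences of Klf7 1419355_at were 1.75 and 1.69 from medium to IL-6 and 0.96 and 0.35 from TGFb to IL-6 with TGFb. In deficient cells limma called 0 of the 26 and 0% of all (979 probe sets, and 0 of the 26, had an unadjusted p under 0.05; 0 with the block). Foxo1 1416983_s_at there moved by -0.45 and -0.33 from medium to IL-6, and by -0.21 and 0.01 from TGFb to IL-6 with TGFb.

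The test of the difference between the IL-6 effects called 0 of the 26 and 0.246% of all probe sets. With the block it called 3 of the 26, all lower in deficient cells, where 1.50% of all were called (1.41% lower). These were Klf7 1419355_at at -1.88 (SE 0.79; limma adjusted p = 0.426 without and 0.0151 with the block), Foxo1 1416981_at at -1.11 (SE 0.33; 0.24 and 0.0469) and Foxo1 1416983_s_at at -0.80 (SE 0.30; 0.373 and 0.0481). Of the fits run, this comparison passed only where the replicate number was in the model.

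From medium to IL-6 with TGFb, WT cells gained Foxo1. By 1416982_at it rose by 1.47 (SE 0.24, 2.77-fold, limma adjusted p = 0.00924) and by 1416983_s_at by 1.35 (SE 0.30, 2.55-fold, limma adjusted p = 0.0447), 2 of the 26 where 2.01% of all probe sets were called (1.55% higher). With the 2 arrays named above left out, 1 was called, where 2.30% of all were called. Of the 16 fits that left out 1 array, 1416983_s_at was called only in the 4 without a WT IL-6 or a deficient TGFb array (adjusted p up to 0.386), while 1416982_at was called in 14 and lost without replicate 1 of WT medium (0.12) or of WT IL-6 with TGFb (0.129). With the block 6 of the 26 rose, where 4.94% of all were called (3.65% higher): Klf10 by 2.32, Foxo1 by 3 probe sets and Klf7 by 2. In deficient cells 0 of the 26 were called and 0.0918% of all (0.224% and 0 of the 26 with the block). Foxo1 1416982_at there was 0.88 higher (SE 0.24, adjusted p = 0.486) and Klf10 1.75 higher (SE 0.53, adjusted p = 0.665). The comparisons of both genotypes and of IL-6 and TGFb share arrays, so their values are given side by side only.

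Klf3, Klf6, Klf13 and Foxo3 had no call over the 16 arrays without the block. Of the fits that left out 1 array, Klf13 1432543_a_at was called in 1 with IL-6 present, without WT IL-6 replicate 1 (limma adjusted p = 0.0258). Klf3, a repressor that works through the corepressor CtBP, had 7 probe sets, of which 6 were tested. Its brightest, 1431630_a_at, stayed between 7.67 and 8.46 with a median of 7.93, and was lower in replicate 2 in 8 of 8 groups. WT cells read 7.96 and 7.67 in medium, 8.46 and 8.03 in TGFb, 7.85 and 7.71 in IL-6, and 7.96 and 7.67 in IL-6 with TGFb. Deficient cells read 8.40 and 7.89, 8.25 and 7.83, 8.06 and 7.83, and 8.22 and 7.73. The array WT IL-6 replicate 2 carried the lowest value of Klf3 1454666_at (5.81, lowest of the others 7.41) and of 1421604_a_at (5.13, lowest of the others 6.38), but not of the brightest. The Klf3 probe sets followed the brightest only loosely, with r from 0.20 to 0.74.

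Klf6, a zinc finger factor induced early after activation, had 5 probe sets, of which 4 were tested. By 1433508_at WT cells read 8.34 and 9.61 in medium, 9.79 and 9.78 in TGFb, 9.49 and 9.33 in IL-6, and 9.27 and 9.20 in IL-6 with TGFb. Deficient cells read 8.87 and 9.84, 7.58 and 10.04, 9.49 and 9.35, and 8.74 and 9.26. The 2 deficient TGFb arrays held both the lowest and the highest value of all 16, the lowest on the array that also read Il17a. No Klf6 or Klf3 probe set was called in any of the 13 comparisons, with or without the block.

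Klf13 1436316_at read 9.58 and 10.49 in WT medium, 10.16 and 10.51 in TGFb, 9.99 and 10.85 in IL-6, and 10.66 and 11.33 in IL-6 with TGFb. Deficient cells read 9.68 and 10.36, 10.75 and 10.27, 9.32 and 10.19, and 9.87 and 10.85. Replicate 2 was higher in 7 of 8 groups, the exception being deficient cells in TGFb. Foxo3 1434831_a_at read 9.11 and 9.82 in WT medium, 9.63 and 10.20 in TGFb, 9.60 and 10.43 in IL-6, and 9.30 and 9.36 in IL-6 with TGFb. Deficient cells read 9.35 and 9.72, 9.22 and 10.20, 9.10 and 9.26, and 9.10 and 9.46, and replicate 2 was higher in all 8 groups.

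The replicate number also moved with other members. Klf7 1449439_at was 1.47 higher in replicate 2 on average (0.74 to 2.60, 8 of 8 groups), Klf7 1419355_at 1.23 higher (8 of 8) and Klf4 1417394_at 0.92 higher (8 of 8). Foxo1 was split: 1416983_s_at was 0.40 higher in replicate 2 in 8 of 8 groups, whereas 1416981_at was 0.39 lower on average and higher in 1 of 8. Since the number goes with both sex-linked genes and the Actb 5′ minus 3′ difference, these cannot be told apart. The 4 probe sets under the level minimum on all arrays (Klf3 1442920_at, Klf6 1459718_x_at, Klf13 1456030_at and Foxo3 1450236_at) read at most 5, 4.70, 5.78 and 5.70 and were not tested.

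Genes downstream and upstream of these factors were read from lists, with 1 probe set (the brightest) per gene. For each list the counts are also given with the replicate block and without the 2 arrays named above, both added after the data were seen. Over all probe sets, 3.76% rose and 2.15% fell with TGFb, and 1.07% were higher and 4.79% lower in deficient cells with IL-6 present. The trafficking targets of Klf2 and Foxo1 had 7 of 9 members tested. With TGFb 0 of 7 were called, with a list median of 0.22 against -0.01 over all probe sets. With the block 1 was higher, where 7.40% of all were. S1pr1, the receptor by which T cells leave lymph nodes and a direct Klf2 target, read 7.69 and 6.52 in WT medium, 8.22 and 8.31 in TGFb, 9.13 and 7.98 in IL-6, and 10.13 and 9.80 in IL-6 with TGFb. In deficient cells it read 8.25 and 6.79, 8.88 and 8.25, 7.86 and 6.17, and 8.77 and 7.88. WT cells in IL-6 with TGFb were highest and the deficient IL-6 array of replicate 2 was lowest. The TGFb difference was 1.23 (SE 0.33, adjusted p = 0.0502; with the block 0.00189) and the genotype difference with IL-6 present -1.59 (SE 0.46, adjusted p = 0.0688; with the block 0.00337). They were 1.04 (adjusted p = 0.167) and -1.81 (adjusted p = 0.109) without the 2 arrays named above.

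With IL-6 present 2 of the 7 trafficking targets were lower in deficient cells and 0 were higher, where 4.79% and 1.07% of all were, with a list median of -0.66 against -0.02 over all probe sets. With the block 3 were lower, where 12.2% of all were, and without the 2 arrays named above 0 were called, where 2.67% of all were. S1pr4, another sphingosine phosphate receptor, fell by 0.76 (SE 0.16, limma adjusted p = 0.0204) and the gut homing integrin Itgb7 by 0.66 (SE 0.14, limma adjusted p = 0.0234). Il7r, the receptor for the survival cytokine IL-7, differed by -1.14 (SE 0.46, adjusted p = 0.165) and the lymph node homing receptor Ccr7 by -0.17 (SE 0.39, adjusted p = 0.813). With TGFb Il7r differed by 0.53 (adjusted p = 0.407) and Ccr7 by 0.21 (adjusted p = 0.737).

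The FOXO targets of cell cycle and stress had all 18 members tested. With TGFb 4 rose and 1 fell, where 3.76% and 2.15% of all did, with a list median of 0.39 against -0.01. With the block 8 rose and 1 fell, where 7.40% and 5.47% of all did. Pik3ip1, an inhibitor of PI3 kinase, rose by 1.61 (SE 0.26, limma adjusted p = 0.0056), the repressor Bcl6 by 1.56 (SE 0.30, 0.0136), the atypical cyclin Ccng2 by 1.46 (SE 0.30, 0.0185) and the ubiquitin ligase gene Fbxo32 by 1.09 (SE 0.14, 0.00165). The death ligand Fasl fell by 1.61 (SE 0.31, limma adjusted p = 0.0135). Without the 2 arrays named above 4 rose and 0 fell, where 4.19% of all were called. Ccng2 (adjusted p = 0.0513) and Fasl (0.0584) were then no longer called, while Sesn3 was called. With IL-6 present 4 were lower in deficient cells and 1 was higher, where 4.79% and 1.07% of all were, with a list median of -0.72 against -0.02. With the block 9 were lower, where 12.2% of all were, and 1 was higher. Pik3ip1 fell by 1.71 (SE 0.37, limma adjusted p = 0.024), Ccng2 by 1.67 (SE 0.43, 0.0462), the stress gene Sesn3 by 1.32 (SE 0.28, 0.0224) and the pocket protein gene Rbl2 by 1.05 (SE 0.25, 0.033). Without the 2 arrays named above, Sesn3 alone was called lower and Fasl higher, where 2.67% of all were called. Pik3ip1, Ccng2 and Rbl2 were then not called (adjusted p = 0.0514, 0.132 and 0.0574).

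Fasl went against the other called members of that list in both comparisons. It read 5.83 and 5.78 in WT IL-6, 4.46 and 4.32 in WT IL-6 with TGFb, 7.90 and 9.78 in deficient IL-6, and 6.57 and 7.79 in deficient IL-6 with TGFb. The WT arrays lay under log2 6 and below every deficient array, and the difference of 2.91 (SE 0.44, limma adjusted p = 0.00526) depends on the background of the WT arrays. IL-6 in WT cells changed 2 of the 18, where 1.17% of all were called. These were Fasl, by -2.71 (SE 0.44, limma adjusted p = 0.0142), and the pro-apoptotic Bcl2l11, by 1.37 (SE 0.25, limma adjusted p = 0.0293). In the fit with the block 3 were higher and 1 was lower, where 2.97% of all were called (2.40% higher).

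Among 13 tested quiescence genes 2 rose with TGFb and 0 fell, where 3.76% and 2.15% of all did (list median 0.32 against -0.01). With the block 4 rose and 1 fell, where 7.40% and 5.47% of all did, and without the 2 arrays named above 2 rose, where 4.19% of all were called. Those called were Tsc22d3, the glucocorticoid-induced leucine zipper gene, by 1.20 (SE 0.22, limma adjusted p = 0.00875) and the antiproliferative gene Tob1 by 0.81 (SE 0.19, 0.035). With IL-6 present 2 fell and 0 rose in deficient cells, where 4.79% and 1.07% of all did (list median -0.38 against -0.02): Tsc22d3 by 1.34 (SE 0.30, limma adjusted p = 0.029) and the ubiquitin ligase gene Peli1 by 0.74 (SE 0.19, 0.0428). With the block 5 fell, where 12.2% of all did, and without the 2 arrays named above 0 were called, where 2.67% of all were. Other KLF and FOXO genes had 7 of 12 members tested, and 0 were called with TGFb or with IL-6 present (list medians -0.08 and 0.27). In the fit with the block 3 rose with TGFb, where 7.40% of all did.

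The upstream regulators of FOXO proteins and of Klf2 had 16 of 18 members tested. With TGFb 4 rose and 0 fell, where 3.76% and 2.15% of all did (list median 0.07 against -0.01). With the block 5 rose, where 7.40% of all did. Without the 2 arrays named above 4 rose, where 4.19% of all were called, with Sgk3 no longer called (adjusted p = 0.0831) and Rictor called. Sgk1, a kinase that phosphorylates FOXO proteins, had the largest difference of these at 3.87 (SE 0.53, limma adjusted p = 0.002). It read 6.09 and 7.48 in WT medium, 10.93 and 12.61 in TGFb, 9.65 and 8.64 in IL-6, and 12.57 and 12.66 in IL-6 with TGFb. In deficient cells it read 6.41 and 7.10, 8.35 and 12.47, 6.07 and 6.81, and 10.27 and 9.36, so that WT cells in IL-6 with TGFb were highest and the deficient TGFb arrays were far apart. Pik3r1, the regulatory subunit of PI3 kinase, rose by 1.09 (SE 0.23, 0.0193), the related kinase gene Sgk3 by 0.66 (SE 0.15, 0.0249) and the transcription factor gene Mef2a by 0.52 (SE 0.10, 0.0136), with limma adjusted p in brackets. With IL-6 present 2 fell and 0 rose in deficient cells, where 4.79% and 1.07% of all did: Rictor, a subunit of the mTORC2 kinase complex, by 1.09 (SE 0.25, limma adjusted p = 0.0307) and the kinase gene Nlk by 0.71 (SE 0.13, 0.0135). With the block 4 fell, where 12.2% of all did. Without the 2 arrays named above 2 fell, where 2.67% of all were called. These were Rictor and Sgk1 (-2.98, limma adjusted p = 0.0206), and Nlk was not called (adjusted p = 0.0581).

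Of 12 genes listed as TGFb feedback genes, 8 rose with TGFb and 0 fell, where 3.76% and 2.15% of all did (list median 0.91 against -0.01). With the block 10 rose, where 7.40% of all did, and without the 2 arrays named above 7 rose, where 4.19% of all were called. The SMAD inhibitors Pmepa1 and Skil rose by 2.36 (SE 0.26, limma adjusted p = 0.000509) and 2.18 (SE 0.21, 0.000188), the receptor gene Tgfbr1 by 2.20 (SE 0.24, 0.000489) and Smad7 by 1.41 (SE 0.12, 0.00011). With IL-6 present 1 of the 12 was lower in deficient cells, where 4.79% of all were, the receptor gene Tgfbr2 by 0.80 (SE 0.18, limma adjusted p = 0.0288). With the block 4 were lower, where 12.2% of all were, and without the 2 arrays named above 1 was, where 2.67% of all were called.

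The genes whose levels were most like those of Klf2 over the 16 arrays, among 13006 others, were Plekha1 (Pearson r = 0.943), Trp53inp1 (0.943) and Txk (0.941). Trp53inp1 read 9.53 to 12.24 on the arrays without TGFb and 12.81 to 13.13 on those with it, with no overlap, as for Klf2. For Foxo1 1416983_s_at the most alike were Setd7 (0.964), Smim14 (0.961) and Nlrc3 (0.959). Setd7 was highest in WT cells in IL-6 with TGFb (10.79 and 11.10), as Foxo1 was. These values describe arrays that share groups and replicate numbers, and no test was made.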

How the data were processed

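Expression was measured on 16 Affymetrix arrays, 1 per sample, of sorted and activated mouse CD4+ T cells. RMA is the summary method named in the submitters' processing notes, which give no version. In the deposited table each intensity is linear, a whole number (100% of values) between 6 and 37243, with array medians of 66 to 73. How RMA values became linear whole numbers is not stated, and steps between low values are coarse. Log2 was taken with no pseudocount, and the deposited normalization was kept. Scanner files were not used here. All columns matched a sample (0 unmapped).

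Of 45101 probe sets, 64 controls were left out, and 27220 that reached log2 6 on at least 2 arrays were tested, while 17817 did not. The annotation gave 1 symbol to 34945 probe sets, several to 932 and none to 9160. All 16 arrays were fitted in limma 3.58.1 under R 4.3.3 with 8 group means. This gave 8 residual degrees of freedom, a prior of 3.17 and a prior SD of 0.281. The 13 comparisons used two-sided tests with Benjamini-Hochberg adjustment within each. The procedure was also run on simulated data with independent noise on each array. Its planted changes were larger than the TGFb changes called for KLF and FOXO probe sets. That run therefore does not show how the fit performs where same-numbered arrays deviate together, or for smaller changes. Arrays are few, which limits the precision.

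Groups and replicate numbers came from the titles. Deviations of same-numbered arrays from their group means correlated at 0.21 to 0.84 (median 0.4) in all 28 pairs of groups. Same-numbered differences are therefore given as pairs, but the main fit did not use this pairing. Its p-values, those given without mention of the block, are unpaired. The titles do not say what a number stands for. A fit with the number as a block is given where it changes a call of a KLF or FOXO probe set or a list's count. Other alternatives were quantile normalization, no level minimum, 1 probe set per gene, leaving out each array and leaving out both doubted arrays.

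The members and lists were chosen with earlier results of these data known. In full were given the brightest probe set of each member, further probe sets where results turned on them, up to 4 called members per list with the largest change, S1pr1, Ccr7 and Il7r always, and the 3 genes most alike to Klf2 and Foxo1. The additional Foxo1 and Klf7 probe sets were given array by array after their values were seen. Promoters came from RefSeq (GRCm38.p6). Figures were drawn with matplotlib 3.10.9 and pandas 2.3.3 in Python 3.11.15.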

Additional observations from a re-analysis of the deposited data

How the results depend on the processing

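No called difference of the KLF and FOXO probe sets changed sign under any alternative run. With the replicate block, probe sets called rose between genotypes from 255 to 585 under IL-6 with TGFb, from 579 to 2729 under IL-6 and from 1594 to 4362 with IL-6 present. They rose from 318 to 808 for IL-6 in WT, from 67 to 407 for its interaction with genotype, from 1608 to 3503 for TGFb, from 0 to 2 for the TGFb interaction, and from medium to IL-6 with TGFb from 546 to 1345 in WT and from 25 to 61 in deficient cells. The replicate block moved the KLF and FOXO probe sets called in the same order from 0 to 3, 1 to 9, 3 to 8, 0 to 2, 0 to 3, 5 to 7, 0 to 0, 2 to 6 and 0 to 0, and changed no other call of theirs. Quantile normalization left 297 calls under IL-6 and 42 for the IL-6 interaction, and 0 and 1 KLF and FOXO calls under IL-6 and with IL-6 present. With 1 probe set per gene there were 155 calls under IL-6 with TGFb and 1009 with IL-6 present, fewer features being tested, and 0 KLF and FOXO calls under IL-6, 1 with IL-6 present and 3 for TGFb. Without the level minimum, 1 KLF and FOXO call was left from medium to IL-6 with TGFb in WT. Without both doubted deficient arrays, calls were 82 under IL-6 with TGFb, 711 with IL-6 present, 5 for the IL-6 interaction and 13 from medium to IL-6 with TGFb in deficient cells, and 1 KLF and FOXO call was left for that step in WT. Where no count over all features stands beside a KLF and FOXO count, the share of all called in that fit is not given here. Such a KLF and FOXO count is therefore not read as a result about these genes. Except where a construction is named, the cause was not tested.

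Leaving out 1 array at a time gave 31 to 305 calls between genotypes under IL-6 with TGFb, 29 to 839 under IL-6, 0 to 38 under TGFb, 368 to 1970 with IL-6 present and 0 to 4 without IL-6. It gave 94 to 654 for IL-6 in WT, 14 to 205 for its interaction, 794 to 2207 for TGFb, 0 to 1 for the TGFb interaction, and 117 to 704 in WT and 5 to 42 in deficient cells from medium to IL-6 with TGFb. The fewest calls came without deficient IL-6 replicate 1 for the genotype difference under IL-6, without replicate 1 of WT IL-6 with TGFb with IL-6 present, and without WT TGFb replicate 2 for TGFb. KLF and FOXO calls ranged from 0 to 2 under IL-6, 0 to 6 with IL-6 present, 4 to 6 for TGFb and 0 to 3 for WT cells from medium to IL-6 with TGFb, and stayed at 0 in the other comparisons. A group left with 1 array was assumed to vary like the others. Probe sets under log2 6 carry background, which limits the precision of the sizes given for Klf7 1419356_at and Fasl.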
